A study of Mus musculus with 4 samples.

Results

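The data describe 10 Kruppel-like factors, Klf2, Klf3, Klf4, Klf5, Klf6, Klf7, Klf9, Klf10, Klf11 and Klf13. They were measured in mouse cells titled as endothelial cells derived from induced pluripotent stem cells (iPSCs). A probe set, the group of short probes with which an Affymetrix array reads 1 transcript, was counted as a member's when the platform annotation gives it that gene symbol alone. This took in 34 of 45037 probe sets and 10 of 18193 genes. The cells came from 2 mice with diet-induced obesity (DIO) and 2 healthy control mice, all aged 24 weeks, with 1 array per mouse. The 4 cultures were kept in an endothelial medium and detached with trypsin before RNA isolation. The labels used here give no strain, sex, genotype, diet composition or reprogramming factors, no number of iPSC lines per mouse and no exposure to flow. Their titles name endothelial cells, their cell type entry reads iPSC, and no sort is mentioned. Whether a reprogramming transgene adds to the Klf4 signal was not tested.

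Kruppel-like factors are zinc finger transcription factors that bind GC-rich and CACCC sequences in promoters and enhancers. In vessels, laminar flow switches on Klf2 and Klf4 through the kinases Mekk3, Mek5 and Erk5 and the Mef2 factors, and the pair raises endothelial nitric oxide synthase and thrombomodulin and lowers adhesion molecules. In mouse embryonic stem cells Klf2, Klf4 and Klf5 sustain the naive pluripotent state, Klf4 is a standard reprogramming factor, and in skin Klf4 is needed for the barrier of the outer layers.

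The promoters of Klf2 and Klf4 are shown because this pair is set against the other factors and Mef2 acts on them in flow. RefSeq windows on the GRCm38.p6 build were found for 8 of the 10 members, cut here to the 250 bases before the annotated start. Capitals mark the MEF2 consensus and the GC box GGGCGG, read on both strands, where matches may overlap. The letters run 5′ to 3′ on the strand of the gene. The Klf2 window lies at chr8:72318812-72319061 on the plus strand and the Klf4 window at chr4:55532476-55532725 on the minus strand.
Klf2: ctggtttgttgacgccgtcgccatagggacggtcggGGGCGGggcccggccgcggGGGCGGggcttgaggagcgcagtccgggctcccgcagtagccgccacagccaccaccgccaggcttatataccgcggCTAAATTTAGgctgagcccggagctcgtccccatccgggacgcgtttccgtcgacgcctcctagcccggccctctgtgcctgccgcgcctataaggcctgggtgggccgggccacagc
Klf4: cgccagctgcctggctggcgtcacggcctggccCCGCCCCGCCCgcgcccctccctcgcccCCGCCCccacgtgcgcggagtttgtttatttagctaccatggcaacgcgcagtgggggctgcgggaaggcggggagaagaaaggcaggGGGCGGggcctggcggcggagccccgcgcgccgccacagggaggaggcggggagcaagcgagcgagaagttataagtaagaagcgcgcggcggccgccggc
The Klf2 window held 1 MEF2 match, CTAAATTTAG, from base −118 to base −109 before the start, where it overlapped no other motif searched. It was the only one of the 8 windows with such a match, against 2.92% of all 32851 promoter windows. The GC box was in 7 of the 8 windows, with 2 matches in Klf2 and 4 in Klf4, and in 32.7% of all windows. The shorter Kruppel-like factor motif CACCC was in 5 of the 8 and in 52.0% of all. It was absent from the Klf4 window. A match describes letters and does not show that a factor bound there.

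The values are log2 expression levels. Control 2 stood apart from the other arrays. Means over a list of 16 measured epidermal genes were 7.79 in DIO 1, 8.63 in DIO 2, 6.56 in control 1 and 11.39 in control 2, with control 2 highest for 16 of 16. Endothelial markers were mostly dim: 11 of 15 had a mean below 7.09, the median of all gene means, and the list averaged 5.86 and 5.78 in DIO against 5.90 and 5.96 in control. Esam, Cdh5, Egfl7 and Eng were the 4 above it. Pluripotent cell markers averaged 10.62 and 9.40 in DIO and 10.05 and 9.19 in control. Simple epithelial markers averaged 12.09 and 12.11 in DIO and 12.13 and 12.25 in control. Cell division genes averaged 11.02 and 10.89 in DIO and 10.88 and 10.36 in control, with a higher DIO mean for 11 of 11, against 53.2% of all genes. Their median difference was 0.03 against control 1 alone, with 8 of 11 higher, and 0.62 against control 2 alone, with 11 of 11 higher. Endoderm markers averaged 6.18 and 6.21 in DIO and 5.55 and 7.71 in control. Bulk RNA cannot tell apart fewer cells of a type and less RNA per cell. Levels of different probe sets are not ranked against one another, because each has its own brightness.

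Klf2, the flow-induced factor of resting endothelium, was at 10.90 and 10.41 in DIO 1 and 2 and at 11.03 and 9.84 in control 1 and 2. It had 1 probe set, 1448890_at. Both DIO values lay between the 2 controls, which marked the highest and the lowest of the 4 arrays. The means were 10.66 ± 0.35 in DIO and 10.43 ± 0.84 in control (SD, n = 2 each). The difference of 0.22 had a standard error (SE) of 0.46, a 95% confidence interval from −1.04 to 1.49 and an adjusted p of 0.925 (limma, Benjamini-Hochberg over all genes). It was −0.37 against control 1 alone, 0.82 against control 2 alone and −0.02 without DIO 1, so the group comparison gave Klf2 no stable direction.

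Klf4 was at 9.45 and 9.79 in DIO 1 and 2 and at 9.33 and 10.82 in control 1 and 2, by its brighter probe set, 1417394_at. Here too the controls held the lowest and the highest value, but the other way round from Klf2. The means were 9.62 ± 0.25 in DIO and 10.07 ± 1.06 in control, a difference of −0.46 with an SE of 0.55 and an interval from −1.95 to 1.04 (limma, adjusted p = 0.864). Against control 1 alone it was 0.29 and against control 2 alone −1.20. The second Klf4 probe set, 1417395_at, read 9.21 and 9.36 in DIO and 9.46 and 10.60 in control. Here DIO 1 and DIO 2 lay under both controls. The difference was −0.74 with an SE of 0.40 (limma on all probe sets, adjusted p = 0.620). The 2 Klf4 probe sets thus gave the same sign but not the same order of the arrays.

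**Figure D1:**
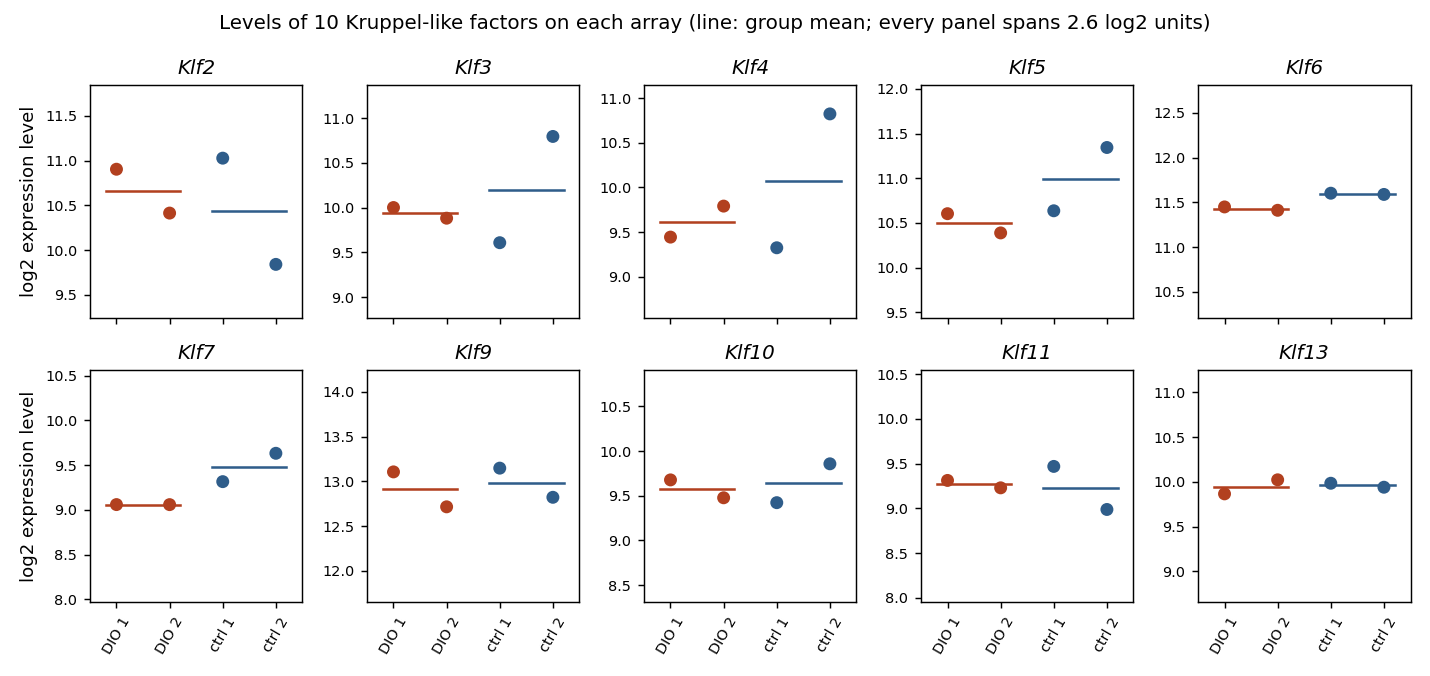
Log2 expression level (vertical axis, each panel centred on its own gene and spanning the same range) of the 10 factors on the arrays DIO 1, DIO 2, control 1 and control 2 (horizontal axis), by the brightest probe set of each gene, with a line at each group mean. Control 2 is the highest point for Klf3, Klf4, Klf5, Klf7 and Klf10 and the lowest for Klf2 and Klf11, while both DIO points lie below both controls for Klf5, Klf6 and Klf7.

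The widest gaps in the pair lay within the groups. From control 1 to control 2 the step was −1.19 for Klf2 and 1.497 for Klf4, and 95.2% and 96.7% of all genes had a smaller gap between the controls. The step from DIO 1 to DIO 2 had the same signs and was smaller, at −0.49 for Klf2 and 0.35 for Klf4, where 93.3% and 85.4% of genes had a smaller gap. Klf2 and Klf4 thus moved in opposite directions within each group.

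The 4 arrays, ordered by the mean of the epidermal list, run control 1, DIO 1, DIO 2, control 2. The order is not particular to that list. Endoderm marker means ran 5.55, 6.18, 6.21 and 7.71 over the arrays so ordered. Means of 12 fibroblast and smooth muscle markers ran 6.26, 6.53, 6.71 and 6.97. Klf4 followed this order by its brighter probe set, as did 4.47% of all genes. Klf2 followed it in reverse, as did Klf11 and 10.3% of all genes. The second Klf4 probe set did not follow it, with control 1 above both DIO arrays. The part of epidermal, endoderm, fibroblast or smooth muscle cells in the Klf2 and Klf4 values was not tested.

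Set against the other 8 factors, the pair did not stand apart as a pair. As deviations from each gene's own 4-array mean, Klf2 and Klf4 together averaged −0.02 and −0.09 in DIO and −0.02 and 0.14 in control. The other 8 averaged −0.03 and −0.15 in DIO and −0.02 and 0.20 in control. The mean difference between DIO and control was −0.12 for the pair and −0.18 for the other 8. The pair's mean joins opposite steps of its 2 genes, and the gap of 0.07 between pair and rest turned to −0.06 when all probe sets of a gene were averaged.

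**Figure D2:**
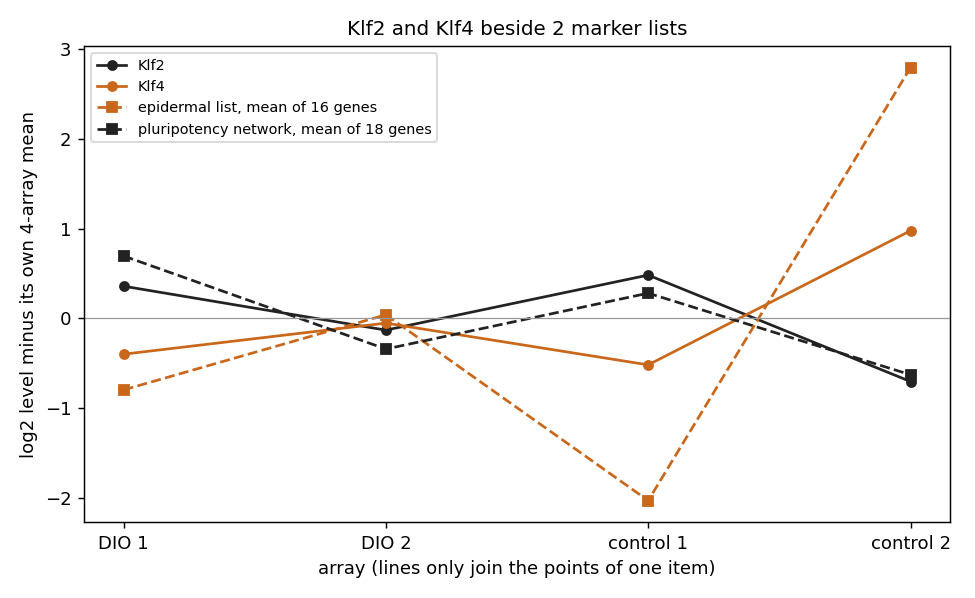
Log2 level minus its own 4-array mean (vertical axis) on the 4 arrays (horizontal axis) for Klf2 and Klf4 (solid lines, circles) and for the mean of the 16 epidermal genes and of the 18 pluripotency network genes (dashed lines, squares). In control 2 Klf4 and the epidermal list are at their highest, and Klf2 and the pluripotency network are at their lowest. Not drawn, the means of the endoderm list and of the fibroblast and smooth muscle list are also highest in control 2.

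Klf5, which sustains stem cells and the intestinal crypt and promotes fat cell differentiation, was at 10.60 and 10.39 in DIO and 10.64 and 11.34 in control by its brightest probe set, 1451021_a_at. Both DIO arrays lay below both controls, though DIO 1 lay close to control 1. The difference of −0.49 had an SE of 0.28 and an interval from −1.27 to 0.28 (limma, adjusted p = 0.761). It was −0.14 against control 1 and −0.85 against control 2, and under centring or quantile normalization the groups overlapped. A second probe set, 1451739_at, read 7.40 and 7.16 in DIO and 7.81 and 8.65 in control. Its difference of −0.95, with an SE of 0.32, was the largest of the 34 probe sets and did not pass (limma on all probe sets, adjusted p = 0.531, unadjusted p = 0.0354). The third was near the bottom of the scale at 3.12 and 3.40 in DIO and 3.22 and 3.22 in control.

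Klf3, a repressor that works through the corepressor CtBP, was at 10.002 and 9.88 in DIO and 9.61 and 10.80 in control by probe set 1454666_at. The DIO arrays lay between the controls. The difference was −0.26 with an SE of 0.43 (limma, adjusted p = 0.903), and it was 0.33 against control 1 and −0.85 against control 2. Of its 7 probe sets, 6 had a lower DIO mean. Both DIO arrays lay below both controls for 2, against 19.0% of all probe sets. For 1, a dim one with a difference of 0.22, both lay above, against 22.3%. The step between the controls, 1.19 for the brightest probe set, was as wide as that of Klf2 and of the opposite sign. Control 2 was the highest array for 5 of the 7.

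Klf7, a factor of neuronal development that restrains fat cell differentiation, had both DIO arrays below both controls by each of its 4 probe sets. Among all probe sets 19.0% had both below. Klf7 was at 9.06 and 9.06 in DIO and 9.31 and 9.63 in control by probe set 1419356_at. Only 0.539% of genes had a smaller gap between the DIO arrays, and 60.5% had a smaller gap between the controls. The means were 9.06 ± 0.00035 in DIO and 9.47 ± 0.22 in control (SD, n = 2 each). The difference of −0.42 had an SE of 0.16 and an interval from −0.86 to 0.03, and it did not pass (limma, adjusted p = 0.728, unadjusted p = 0.0604). It was −0.26 against control 1 and −0.57 against control 2.

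The other 3 Klf7 probe sets ran the same way. One read 8.90 and 8.74 in DIO and 9.06 and 9.31 in control. The next read 8.15 and 7.94 in DIO and 8.52 and 8.77 in control, a difference of −0.60 with an SE of 0.16. The last read 8.06 and 8.004 in DIO and 8.48 and 8.73 in control, a difference of −0.57 with an SE of 0.14. The 4 probe sets read the same RNA and are not replicates of the condition, and on the table of all probe sets none passed (limma, adjusted p between 0.531 and 0.548), with 2 of the 4 at an unadjusted p under 0.05.

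Klf6, an early response gene of injured vessel wall and liver, was at 11.45 and 11.41 in DIO and 11.60 and 11.59 in control by probe set 1427742_a_at. Both DIO arrays lay below both controls by a small and even step. The means were 11.43 ± 0.027 in DIO and 11.60 ± 0.0097 in control, a difference of −0.17 with an SE of 0.12 and an interval from −0.49 to 0.16 (limma, adjusted p = 0.787). It was −0.17 against control 1 and −0.16 against control 2. Of its 5 probe sets, 3 had both DIO arrays below both controls, against 19.0% of all probe sets. Among the 3 was 1447448_s_at, whose suffix marks possible cross-hybridization with other genes, as does that of the dim 1459718_x_at. The others were at 9.74 and 9.79 in DIO and 9.68 and 9.95 in control, and, near the bottom of the scale, at 4.42 and 4.70 in DIO and 4.05 and 4.53 in control. The 18S ribosomal RNA control probe sets also separated the groups, with averages of 12.30 and 11.96 in DIO and 12.60 and 12.65 in control, and their part in the Klf6 and Klf7 values was not tested.

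**Figure D3:**
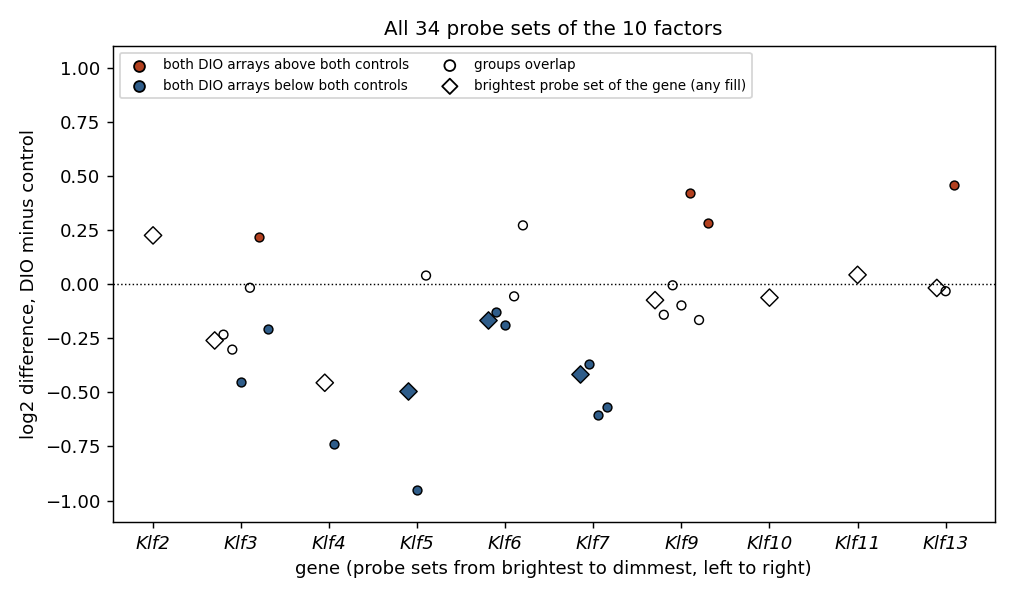
Log2 difference, DIO minus control (vertical axis), of all 34 probe sets by gene (horizontal axis, brightest probe set on the left of each gene, drawn as a diamond). All 4 Klf7 probe sets and 3 of the 5 Klf6 probe sets have both DIO arrays below both controls (blue), while 2 of the 7 Klf9 probe sets have both above (red). Over all probe sets of the array the shares are 19.0% below and 22.3% above.

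Klf9, which responds to glucocorticoid and thyroid hormone, was at 13.11 and 12.71 in DIO and 13.15 and 12.82 in control by probe set 1456341_a_at. The value was higher in mouse 1 than in mouse 2 of each group, and the groups overlapped. The difference was −0.07 with an SE of 0.21 (limma, adjusted p = 0.949). DIO 2 lay below DIO 1 for 7 of its 7 probe sets and control 2 below control 1 for 6. A probe set with such a suffix, 1422264_s_at, read 9.01 and 8.95 in DIO and 8.61 and 8.51 in control, which differ by 0.42 with an SE of 0.12 (limma on all probe sets, adjusted p = 0.531). Of the 7 Klf9 probe sets, 5 had a lower DIO mean. The 2 with a higher mean were 1422264_s_at and a dim one, at 4.40 and 4.22 in DIO and 3.98 and 4.07 in control. By the brightest probe set the sign also turned under centring, to 0.018.

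Klf10 and Klf11 are known as early genes of the response to transforming growth factor beta (TGF-beta). Klf10 was at 9.68 and 9.48 in DIO and 9.42 and 9.86 in control, a difference of −0.06 with an interval from −0.62 to 0.50. Klf11 was at 9.31 and 9.23 in DIO and 9.47 and 8.99 in control, a difference of 0.04 with an interval from −0.52 to 0.61. For both the DIO arrays lay between the controls, and each had 1 probe set (limma, adjusted p = 0.957 and 0.972).

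Klf13, an activator of the chemokine gene Ccl5 in T cells, was at 9.87 and 10.02 in DIO and 9.98 and 9.94 in control. The difference of −0.02 had an SE of 0.13 and an interval from −0.38 to 0.34 (limma, adjusted p = 0.984). A second probe set of similar brightness differed by −0.03, and a dim one, at 5.34 and 5.25 in DIO and 4.62 and 5.05 in control, by 0.46. The sign of Klf10 and of Klf13 turned under centring and under quantile normalization. The intervals do not show that the levels were equal.

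Over the 10 members, 8 had a lower DIO mean, as did 46.7% of all genes, and 2 had a higher one, as did 53.2%. The median difference was −0.12 over the members and 0.02 over all genes. With each array centred on its median gene, 5 members and 12318 of the 18193 genes had a higher DIO mean, and the medians were −0.027 and 0.11. Quantile normalization left 4 members with a higher mean. In limma 0 of the 10 passed, as did 0 of the 18193 genes, and 0 of the 10 were at an unadjusted p under 0.05, as were 6.58% of all genes. Without control 1, 5 were under it, Klf2 on the higher side and Klf3, Klf4, Klf5 and Klf7 on the lower, against 20.3% of all genes, and none passed after adjustment (limma, lowest adjusted p = 0.080 for Klf4). With probe sets averaged, 1 member, Klf7, was under it, against 6.65% of all genes. Both DIO arrays lay below both controls for 3 members, Klf5, Klf6 and Klf7, against 17.0% of all genes, and above both for 0, against 21.4%. Under centring or quantile normalization Klf5 left this group and Klf6 and Klf7 stayed in it. Both DIO arrays lay below control 1 alone for 6 members, against 42.3% of all genes, and below control 2 alone for 6, against 29.6%. Of the 34 probe sets, 12 had both DIO arrays below both controls and 4 had both above, against 19.0% and 22.3% of all probe sets. At an unadjusted p under 0.05 (limma on all probe sets), 3 of the 34 were lower in DIO, against 5.17% of all probe sets, and 1 was higher. Both directions together held 4184 of the 45037 probe sets. The 12 came from Klf3, Klf4, Klf5, Klf6 and Klf7. Below control 1 alone there were 21 of the 34, against 41.1% of all probe sets, and below control 2 alone 18, against 31.5%.

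Control 2 was the highest array for 5 of the 10 members, Klf3, Klf4, Klf5, Klf7 and Klf10, against 20.9% of all genes. It was the lowest for 2, Klf2 and Klf11, against 40.9%. The median gap between the 2 controls was 0.46 over the members and 0.24 over all genes. Between the DIO arrays it was 0.18 over the members and 0.14 over all genes. Leaving out each array in turn, Klf5, Klf6 and Klf7 had a lower DIO mean in 4 of 4 cases, and each other member turned its sign at least once.

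**Figure D4:**
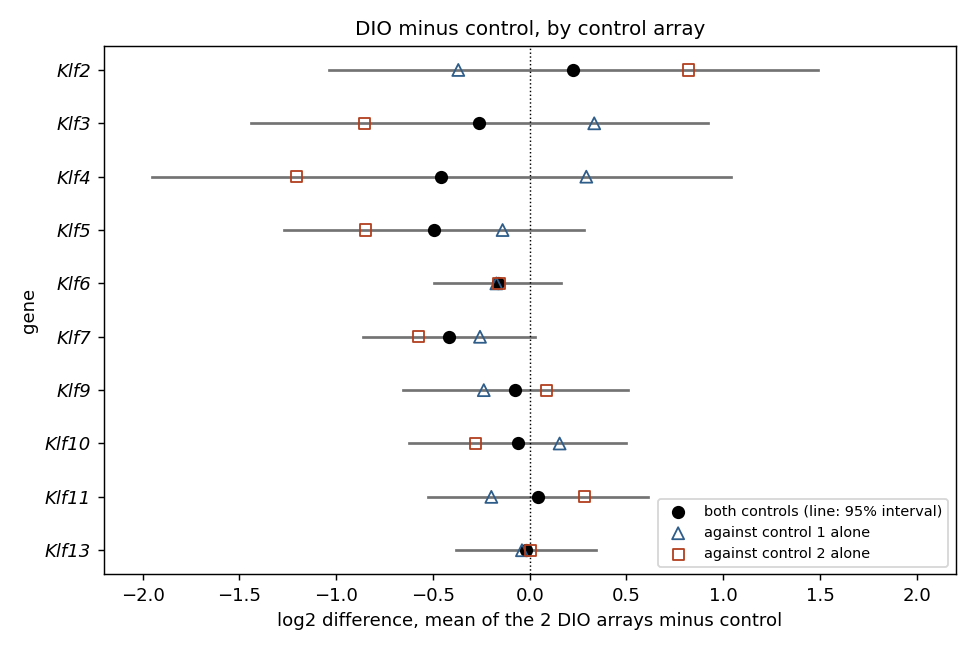
Log2 difference, DIO minus control (horizontal axis), of the 10 factors (vertical axis) with the 95% interval from limma (line), and the same against control 1 alone (triangle) and control 2 alone (square). Each interval holds 0, and the triangle and the square lie on opposite sides of 0 for Klf2, Klf3, Klf4, Klf9, Klf10, Klf11 and Klf13.

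Other members of the family held no gene that passed. Of 13 measured Klf and Sp genes, 7 averaged higher in DIO and 6 lower, against 53.2% and 46.7% of all genes. The median difference was 0.11. In limma 1 was at an unadjusted p under 0.05, higher in DIO, against 3.26% of all genes. For 5 of the 13 both DIO values exceeded both control values, against 21.4% of all genes, and for 1 both were lower, against 17.0%. Sp1 and Sp3, which bind GC boxes in most cells, differed by −0.05 ± 0.14 (SE) and 0.11 ± 0.14. Klf16 differed by 0.30 ± 0.14. Klf15, a glucocorticoid-responsive regulator of amino acid and glucose metabolism, was at 8.44 and 7.90 in DIO and 8.37 and 7.17 in control, in the same order of mouse 1 over mouse 2 as Klf9.

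The cascade that switches on Klf2 and Klf4 in flow was listed with its sensors and the cerebral cavernous malformation (CCM) proteins that restrain it. Of these 18 genes, 8 averaged higher in DIO, against 53.2% of all genes. The median difference was −0.08, and it turned to 0.013 under centring. In limma 2 of the 18 were at an unadjusted p under 0.05, both higher in DIO, against 3.26% of all genes. Piezo1, a stretch- and flow-gated ion channel, was at 11.11 and 11.17 in DIO and 10.81 and 10.48 in control, a difference of 0.50 ± 0.17 (limma, adjusted p = 0.728). The other was Krit1, a CCM protein named after its values were seen, at 8.13 and 8.53 in DIO and 7.42 and 7.58 in control. Of the 18 genes, 3 had both DIO values above both control values, Piezo1, Krit1 and Pdcd10, against 21.4% of all genes. The count with both below was 8, against 17.0%. These 8, named after their values were seen, were Map3k2, Map3k3, Mapk7, Mef2a, Mef2c, Hdac5, Heg1 and Kdr. Among them Mef2c, Heg1 and Kdr had a mean below 7.09. Mapk7, or Erk5, was at 7.47 and 7.37 in DIO and 8.08 and 7.52 in control, a difference of −0.38 ± 0.23. The CCM partners Pdcd10 and Ccm2 differed by 0.20 ± 0.16 and 0.01 ± 0.21, and the kinase Map3k3, or Mekk3, by −0.15 ± 0.15. Mef2a, chosen after its values were seen, was at 8.74 and 8.92 in DIO and 9.11 and 9.39 in control.

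Endothelial genes that Klf2 or Klf4 is known to raise averaged higher in DIO for 3 of 8, against 53.2% of all genes. Their median difference was −0.21. In limma 0 passed, with 0 at an unadjusted p under 0.05. In control 2, where Klf2 was lowest and Klf4 highest, 6 of the 8 were at their highest, against 20.9% of all genes. Whether either factor acts on these genes here was not tested. Thbd, the thrombomodulin gene, was at 7.12 and 7.26 in DIO and 7.005 and 8.79 in control. Nos3, which makes nitric oxide in endothelium, read 6.29 and 6.19 in DIO and 6.25 and 7.06 in control. Ass1, which recycles citrulline to arginine, differed by 0.08 ± 0.13 and the prostaglandin D synthase Ptgds by 0.26 ± 0.27. Set against control 1 the median was 0.10, and set against control 2 it was −0.54. Of the 8 members, 7 had a mean below 7.09, and how far they lay above background is unknown.

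Genes that the pair is known to lower averaged higher in DIO for 3 of 8 measured members, against 53.2% of all genes. Their median difference was −0.18, with 0 at an unadjusted p under 0.05 (limma). F3, the tissue factor gene, was at 10.01 and 9.76 in DIO and 9.67 and 10.49 in control. The vessel-destabilizing ligand Angpt2 differed by −0.24 ± 0.16, the chemokine Ccl2 by −0.20 ± 0.41 and the adhesion molecule Vcam1 by 0.15 ± 0.13. Against control 1 the median was 0.14 and against control 2 −0.15. Control 2 was the highest array for 4 of the 8, against 20.9% of all genes. As in the list of raised genes, 7 of the 8 had a mean below 7.09, and how far they lay above background is unknown.

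The naive pluripotency network averaged higher in DIO for 17 of 18 genes, against 53.2% of all genes, at a median difference of 0.34. In limma 0 passed, with 0 at an unadjusted p under 0.05. The steps within the groups were wider. DIO 2 lay below DIO 1 for 17 of 18, against 51.6% of all genes. Control 2 lay below control 1 for 17 and above it for 1, where 37.6% of all genes had it above. The arrays of mouse 1 both lay above those of mouse 2 for 16 of 18. The same held for Klf2, Klf9 and Klf11 among the 10 members, and for 24.3% of all genes. Pou5f1, or Oct4, was at 11.79 and 10.33 in DIO and 11.16 and 9.96 in control, Sox2 differed by 0.49 ± 0.45 and the zinc finger factor Sall4 by 0.36 ± 0.40. Klf4 and Klf5, which belong to this network in stem cells, were not lowest in control 2 but highest. Set against control 1 the network's median was −0.11, with 6 of 18 higher in DIO, and set against control 2 it was 0.86, with 17 of 18 higher.

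Cells switch on immediate early genes within minutes of stimulation or detachment. These averaged lower in DIO for 14 of 18, against 46.7% of all genes. The median difference was −0.35. Control 2 was the highest array for 11 of the 18, against 20.9% of all genes. Both DIO arrays lay below both controls for 8, against 17.0% of all genes, and above both for 2, against 21.4%. In limma 0 passed, with 2 lower and 1 higher in DIO at an unadjusted p under 0.05, against 3.32% and 3.26% of all genes. Dusp1, a phosphatase that shuts off MAP kinases, was at 11.004 and 10.99 in DIO and 11.32 and 11.53 in control, a difference of −0.43 ± 0.14 (limma, adjusted p = 0.728). Btg2 differed by −0.35 ± 0.22, Jund by 0.09 ± 0.17 and Fos by 0.12 ± 0.16. Set against control 1 alone the median stood at −0.20, and against control 2 alone at −0.39. The part of the handling of the cells in the Klf6 and Klf7 values was not tested.

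Klf10 and Klf11 belong to the early genes of TGF-beta signalling. Of 11 receptors, Smads and early genes listed for it, 4 averaged higher in DIO, against 53.2% of all genes. The median difference was −0.03, and it turned to 0.062 under centring and 0.041 under quantile normalization. Smad4 differed by 0.08 ± 0.14, Smad2 by −0.21 ± 0.17, the receptor Tgfbr2 by −0.62 ± 0.33 and Ccn2, or connective tissue growth factor, by −0.22 ± 0.38. Of 8 glucocorticoid and thyroid hormone receptors and response genes, which go with Klf9, 1 averaged higher in DIO, against 53.2% of all genes. The median difference was −0.34. Both DIO arrays lay below both controls for 4 of the 8, against 17.0% of all genes, and above both for 0, against 21.4%. In limma 1 was at an unadjusted p under 0.05, lower in DIO, against 3.32% of all genes. Per1, a clock gene, was at 8.76 and 8.79 in DIO and 9.50 and 9.15 in control. Sgk1 differed by −0.29 ± 0.18 and Tsc22d3, the glucocorticoid-induced leucine zipper gene, by −0.14 ± 0.20, and Fkbp5 was the 1 with a higher mean, at 0.13 ± 0.20. Of 8 corepressors of Klf3 or of Klf9, Klf10, Klf11 and Klf13, 7 averaged higher in DIO, against 53.2% of all genes. Their median difference was 0.16. After centring the count was again 7 of 8, against 12318 of all 18193 genes. For 3 of the 8 the lower DIO value exceeded the higher control value, against 21.4% of all genes. The reverse held for 0, against 17.0%. In limma 1 of the 8 was at an unadjusted p under 0.05, higher in DIO, against 3.26% of all genes. Ctbp2, a partner of Klf3, was at 11.80 and 11.56 in DIO and 11.05 and 11.26 in control, a difference of 0.52 ± 0.16. Sin3b differed by 0.03 ± 0.17, Ctbp1 by 0.02 ± 0.14 and the deacetylase Hdac1 by 0.34 ± 0.14. None of these genes passed in limma (adjusted p = 0.728 or more for each).

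The genes whose 4-array profile lay closest to that of Klf2, Klf4 or Klf5 were sought among 8917 genes above the median level, by the root mean square distance of the centred log2 values. Closest to Klf2 was Tfcp2l1, a factor of the naive pluripotency network, at a distance of 0.019, with 10.64 and 10.15 in DIO and 10.73 and 9.55 in control. Prr15l, Tcfl5, the glycolipid enzyme A4galt and the exporter Abcc4 followed at 0.039 to 0.080. Closest to Klf4 was Fabp5, the epidermal fatty acid binding protein, at 0.034, with 12.68 and 13.06 in DIO and 12.50 and 14.02 in control. It was followed by Armcx3, by Sp6, a family member known from skin and tooth epithelium, by the chloride channel Ano1 and by the Wnt receptor Fzd6, at up to 0.076. Closest to Klf5 was Epas1, the hypoxia-inducible factor 2 alpha gene, at 0.0071, with 11.34 and 11.14 in DIO and 11.39 and 12.10 in control. Map3k8, Ptprk, Ccng2 and Tuba4a followed at 0.011 to 0.036. With 4 arrays many genes share a profile, so the lists are descriptions of these arrays.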

How the data were processed

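Total RNA of 4 cultures was labelled with biotin and hybridized to Affymetrix arrays, per the labels. The authors deposited 1 table of log2 expression levels per probe set, whose background correction, normalization and summary method remain not given in the sources used here. That these are log2 levels was read from their range, 2.59 to 14.56, with array medians of 5.61 to 5.65. Of 45101 probe sets, 64 manufacturer controls were left out of the tests. For each of 18193 genes the brightest probe set over the 4 arrays stood for it, among the 34945 of 45037 that name 1 gene. The fit used lmFit and eBayes of limma 3.58.1 (R 4.3.3) on all genes, 2-sided, at a Benjamini-Hochberg adjusted p of 0.05. Every difference is DIO minus control on the log2 scale. No detection calls were used. With 2 arrays per group the 95% interval of a gene reached a median of 0.456 to either side, and an exact 2-sided permutation test cannot go below p = 0.333. Nothing says whether the cultures are separate beyond the mouse they came from, so p-values measure the spread between these samples, which may be in part technical. On simulated arrays with 200 changed genes, the fit recovered 0.0% of differences of 1 log2 unit, 62.1% of 2 units and 84.6% of 3 units. A count of 0 genes past the threshold therefore does not show that levels were equal. The genes named are all members, the 4 brightest measured genes of each list, and for Klf2, Klf4 and Klf5 the 5 nearest in profile. Exceptions are marked as chosen after their values were seen. The members and lists were chosen with earlier results of these data known. Alternatives were quantile normalization, median centring, the mean of all probe sets of a gene, every probe set on its own, a filter on the dimmest 40% of genes, array weights, eBayes with a trend and robust priors, the mouse number as a block and leaving out each array.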

Additional observations from a re-analysis of the deposited data

How the results depend on the processing

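No member passed in limma under any alternative, and over all genes the count past the threshold was 0, except 483 without control 1 (0 to 483 over the arrays left out). At an unadjusted p under 0.05 (limma) there were 1198 genes, 607 without the dimmest genes and 4184 probe sets when each was tested. The number of genes also moved whichever array was left out, which leaves 1 array in a group. A higher DIO mean was held by 2 members, by 5 after centring and by 4 after quantile normalization or averaging of probe sets, and by 2 to 4 with 1 array left out. With each array left out, the lowest and highest differences were −0.37 and 0.82 for Klf2, −0.85 and 0.33 for Klf3, −1.20 and 0.29 for Klf4, −0.85 and −0.14 for Klf5, −0.18 and −0.15 for Klf6, −0.57 and −0.26 for Klf7, −0.27 and 0.12 for Klf9, −0.28 and 0.15 for Klf10, −0.20 and 0.28 for Klf11 and −0.10 and 0.061 for Klf13. The members' median ran from −0.23 to −0.12, and the mean of Klf2 and Klf4 minus that of the other 8 from 0.03 to 0.10. Centring put the median at −0.027, with Klf9 at 0.018, Klf10 at 0.030 and Klf13 at 0.075. Quantile normalization put Klf10 at 0.0085 and Klf13 at 0.044. Averaged probe sets put Klf9 at 0.031, Klf13 at 0.14 and the pair minus the rest at −0.056. Single dimmer probe sets had the opposite sign for Klf3 (0.22), Klf5 (0.039), Klf6 (0.27), Klf9 (0.42 and 0.28) and Klf13 (0.46). The causes were not tested. With the mouse number as a replicate block, 0 genes passed, 982 were at an unadjusted p under 0.05 and no member's call changed. The steps from mouse 2 to mouse 1 in the groups had a correlation of 0.33 across 18193 genes, which are not independent. The mice share only a number in the labels. The alternatives for the counts of members, whose values stand above, were chosen after seeing the data. The number of arrays, and for dim probe sets an unknown background, limit every value.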
